A study of Mus musculus with 8 samples.

Results

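Expressed ribosomal protein pseudogenes were the genes whose symbol has the form of a ribosomal protein gene followed by -ps and a number, chosen by a mean raw count of at least 10 over the 8 libraries. The symbol form took in 300 of the 55401 genes in the deposited tables, of which 78 had no read in any library and 190 had some reads but a mean below 10. The 32 that remained are described here beside the 23 ribosomal protein genes they are named after. Just inside the threshold, Rps7-ps2 had a mean of 10.9 reads and Rpl31-ps20 and Rps12-ps9 had 10.0 each. Just outside it, Rpl30-ps6 had 8.38, Rps12-ps1 had 7.88 and Rpl23a-ps2 had 6.75.

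The libraries are total RNA of mouse embryonic stem cells (ESCs) in which ZZZ3 or YEATS2 was targeted for degradation, both being subunits of the ATAC transcriptional coactivator complex. There were 2 libraries labelled control, 3 labelled Zzz3 auxin and 3 labelled Yeats2 auxin, and auxin was given at 500 µM for 24 h. It acts on a protein that carries an auxin-inducible degron (AID) by way of Tir1, a plant F-box protein that the study's methods describe as expressed from the PGK promoter. All cells grew on gelatin in serum with leukaemia inhibitory factor and the 2i inhibitors, under G418 to retain Tir1, and the labels state neither the line of the controls nor whether auxin or solvent was added to them. The study's supplement sets solvent (DMSO) against auxin within each AID line, whereas the labels here give a single control group and do not tie either of its libraries to a line. From the labels, effects of the targeted protein, of auxin and of the line cannot be told apart in the comparisons with control. Poly(A) RNA is the molecule given in the labels, although the library protocol describes stranded libraries after ribosomal RNA depletion. The labels do not say that libraries came from separate cultures. The study's methods describe independent cultures for nascent RNA of another AID line, and like conditions for the RNA libraries of these lines, without naming the culture of each, so P values measure the spread between libraries, part of which may be technical.

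Reads assigned to genes numbered 14315120 to 27884704 per library. Chi-square per gene was 3.82 for replicates 1 and 3 of Yeats2 auxin and 22.1 to 53.9 for the other pairs of libraries within a group. This was above counting noise in each pair, so each library was used as its own sample. Such an excess does not show that the libraries came from separate cultures. All 10 ESC markers were found at a mean of at least 1 CPM (counts scaled to a common library size), with summed levels of 4890 to 5742 CPM, and all 7 fibroblast and all 5 endoderm markers had means below 1 CPM. Of 4 mesoderm and 4 neuroectoderm markers, 2 each were below 1 CPM, and Tubb3 was the highest of them at 44.8 CPM. Zzz3 RNA had a log2 fold change (FC) of -0.95 in Zzz3 auxin (edgeR adjusted P 0.0187), and Yeats2 RNA one of -0.32 in Yeats2 auxin (edgeR adjusted P 0.605). The median log2 ratio of GC-rich genes minus GC-poor genes (outer quartiles) reached -0.53 for Control replicate 1 and 0.38 for replicate 3 of Zzz3 auxin, and the other 6 libraries had -0.07 to 0.14.

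Ribosomal proteins build the small (Rps) and large (Rpl) subunit of the ribosome, and their messenger RNAs are among the most abundant of growing cells. Such messages are often copied back into DNA by retrotransposition, which leaves intronless copies, called processed pseudogenes, at unrelated places of the genome. Most lack a promoter of their own and decay by mutation, but a copy that lands near an active promoter or within another gene can be transcribed. Because young copies are nearly identical to the parent, short reads can often not be placed on one of them, and only reads with 1 best place enter counts of the kind deposited here. Between 45.6% and 51.7% of all counts tallied in a library were listed as not uniquely placed. Whether a read with several places entered this tally more than once was not tested, so it is not given as a share of reads.

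The sequences below show how little separates the most abundant copies from their parents. Each is a stretch of 100 bases, with capitals at the bases that differ between the copy and the parent. The stretch is the one with the most differences within the coding part of the parent, or the start of the coding part where there is no difference. Copies are given by their place in GRCm38 and parents by position in their coding sequence.
Rps13-ps1, chr8:87048049-87048148, plus strand: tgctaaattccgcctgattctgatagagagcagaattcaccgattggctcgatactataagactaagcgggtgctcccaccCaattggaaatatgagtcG
Rps13, coding bases 330 to 429: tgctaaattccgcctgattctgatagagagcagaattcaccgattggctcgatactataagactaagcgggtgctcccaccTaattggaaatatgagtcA
Rpl14-ps1, chr7:45325288-45325387, plus strand: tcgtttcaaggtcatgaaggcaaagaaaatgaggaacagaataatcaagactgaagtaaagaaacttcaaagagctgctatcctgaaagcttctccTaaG
Rpl14, coding bases 324 to 423: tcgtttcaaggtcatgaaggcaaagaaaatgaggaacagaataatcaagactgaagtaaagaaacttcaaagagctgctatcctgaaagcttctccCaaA
Rpl30-ps1, chr6:38376807-38376906, plus strand: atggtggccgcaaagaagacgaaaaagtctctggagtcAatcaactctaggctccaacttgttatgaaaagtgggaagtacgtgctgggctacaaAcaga
Rpl30, coding bases 1 to 100: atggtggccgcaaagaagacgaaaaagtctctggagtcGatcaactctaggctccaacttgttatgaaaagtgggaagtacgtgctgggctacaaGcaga
Rplp0-ps1, chr3:93278762-93278861, plus strand: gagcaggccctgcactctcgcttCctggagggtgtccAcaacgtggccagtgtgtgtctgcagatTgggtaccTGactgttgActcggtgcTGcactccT
Rplp0, coding bases 622 to 721: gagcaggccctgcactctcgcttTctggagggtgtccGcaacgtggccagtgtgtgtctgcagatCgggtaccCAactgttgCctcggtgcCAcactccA
The copies of Rps13, Rpl14 and Rpl30 differed from the parent at 2 bases each in these stretches, and that of Rplp0 at 9. Over the aligned bases, identity to the parent was 99.6% for Rps13-ps1, 99.4% for Rpl14-ps1, 99.1% for Rpl30-ps1 and 95.7% for Rplp0-ps1. Of the annotated bases, 97.0% aligned for Rps13-ps1 and 100% for each of the others.

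Rpl31 has 3 copies among the 32, and these span the range from no difference to many. The first copy below is letter for letter the same as Rpl31 over all of its 378 annotated bases, and the second differs at 5 of the 100 bases shown.
Rpl31-ps8, chr15:90764557-90764656, minus strand: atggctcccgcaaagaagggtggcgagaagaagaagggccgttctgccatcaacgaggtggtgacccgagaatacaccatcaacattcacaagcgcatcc
Rpl31-ps20, chr19:30160620-30160719, plus strand: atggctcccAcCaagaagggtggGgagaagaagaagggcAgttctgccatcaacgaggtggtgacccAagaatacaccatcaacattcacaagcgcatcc
Rpl31, coding bases 1 to 100: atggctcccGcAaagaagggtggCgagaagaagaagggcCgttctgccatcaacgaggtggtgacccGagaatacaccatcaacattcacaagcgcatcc
The third copy, Rpl31-ps17, was 98.1% identical to Rpl31, and Rpl31-ps20 was 96.3% identical.

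The 32 pseudogenes comprised 16 named after large-subunit and 16 named after small-subunit genes, and lay on 17 chromosomes, with 3 of the pseudogenes on X. All 32 are annotated as 1 exon, with lengths of 333 to 1347 bases. The annotation calls 30 of them processed pseudogenes and 2, Rpl9-ps6 and Rpl10-ps3, protein coding. They are not 32 independent genes, since Rpl31, Rpsa and Rps12 each have 3 copies and 3 other parents each have 2. An open reading frame of at least 99% of the coding length of the parent was present in 18, one of 30% to 99% in 5, and one below 30% in 9. Rpl31-ps8, Rpl10a-ps1, Rpl28-ps1 and Rps16-ps2 contained no stretch of 100 bases that is absent from the parent's transcripts, while 21 of the 32 had at least 50% of such stretches in no other annotated transcript. The share absent from the parent's transcripts was also low for Rpl10-ps3 (4.19%), Rpl3-ps1 (14.2%), Rpl9-ps6 (19.8%) and Rpl19-ps11 (20.3%). Rps13-ps1 had 23.2%, Rps12-ps9 39.0% and Rpl14-ps1 39.4%.

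Aligned to the transcripts of the parent, 31 of the 32 matched over at least 96.4% of their length, with identities of 89.2% to 100% and a median of 98.3%. The exception was Rps7-ps2, which aligned to Rps7 over only 13 bases. Its annotated transcript aligned instead to Odc1, the gene of ornithine decarboxylase, over 1268 bases at 96.5% identity, so its sequence goes against its symbol. Rps7-ps2 had 0.296 to 0.726 CPM, while Odc1 had 160 and 155 CPM among controls, then 203, 198 and 145 for Zzz3 auxin and 194, 201 and 185 for Yeats2 auxin.

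**Figure D1:**
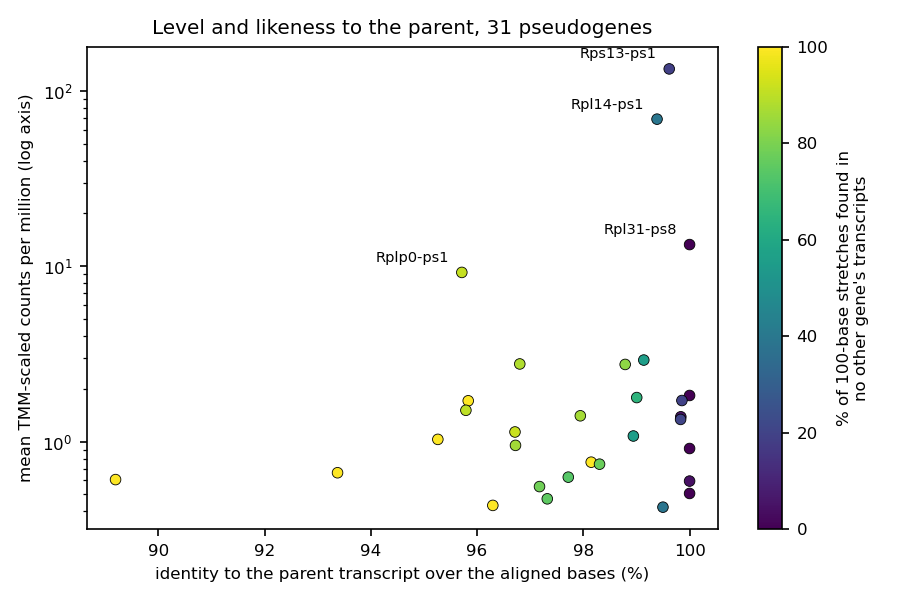
Mean TMM-scaled CPM over the 8 libraries (log axis) against identity to the parent transcript for the 31 pseudogenes that align to it, colored by the percentage of 100-base stretches found in no other gene's transcripts. The 3 highest, Rps13-ps1, Rpl14-ps1 and Rpl31-ps8, are at least 99.4% identical to the parent.

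A pseudogene inside another transcribed gene can take reads from that gene, so positions were compared with the annotation. No other gene overlapped 20 of the 32. Of the rest, 4 lay in an intron of a gene on the same strand, 8 in an intron of a gene on the opposite strand, which Rps12-ps9 did as well as the former, and Rpl19-ps11 overlapped a microRNA entry, Gm27288, in its exon. Counting separated the strands: of 337 genes wholly inside an exon of a well-expressed gene on the same strand, 1 had any read (0.297%), against 92 of 190 (48.4%) inside an exon on the opposite strand. The gene around Rplp0-ps1 is Flg, which had no read in any library. Around Rps12-ps26 lies Nol11, a nucleolar protein gene at 187 to 250 CPM, so reads of its unspliced RNA could have been counted at the copy, which was not tested.

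Levels were very uneven, as the plot of CPM by library shows. Rps13-ps1 alone held 51.6% of all reads counted at the 32, and with Rpl14-ps1, Rpl31-ps8 and Rplp0-ps1 it held 87.2%. The other 28 had means of 0.422 to 2.92 CPM, and 14 of them were below 1 CPM. These 28 had 2 to 110 reads in a library. Scaled by annotated exon length, Rps13-ps1 had 248 CPM per kilobase, Rpl14-ps1 106, Rpl31-ps8 35.2 and Rplp0-ps1 9.88. Per kilobase of annotated exons, the parents had 13.4 (Rps13), 295 (Rpl14), 42.6 (Rpl31) and 261 (Rplp0). These lengths join the exons of all transcripts of a gene, so values of copy and parent per kilobase are not directly comparable. For Rps13 the joined length was 2691 bases, while its transcript that aligned best to Rps13-ps1 had 589 and the copy 538. Unscaled means were 134 CPM for Rps13-ps1 and 36.1 for Rps13.

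**Figure D2:**
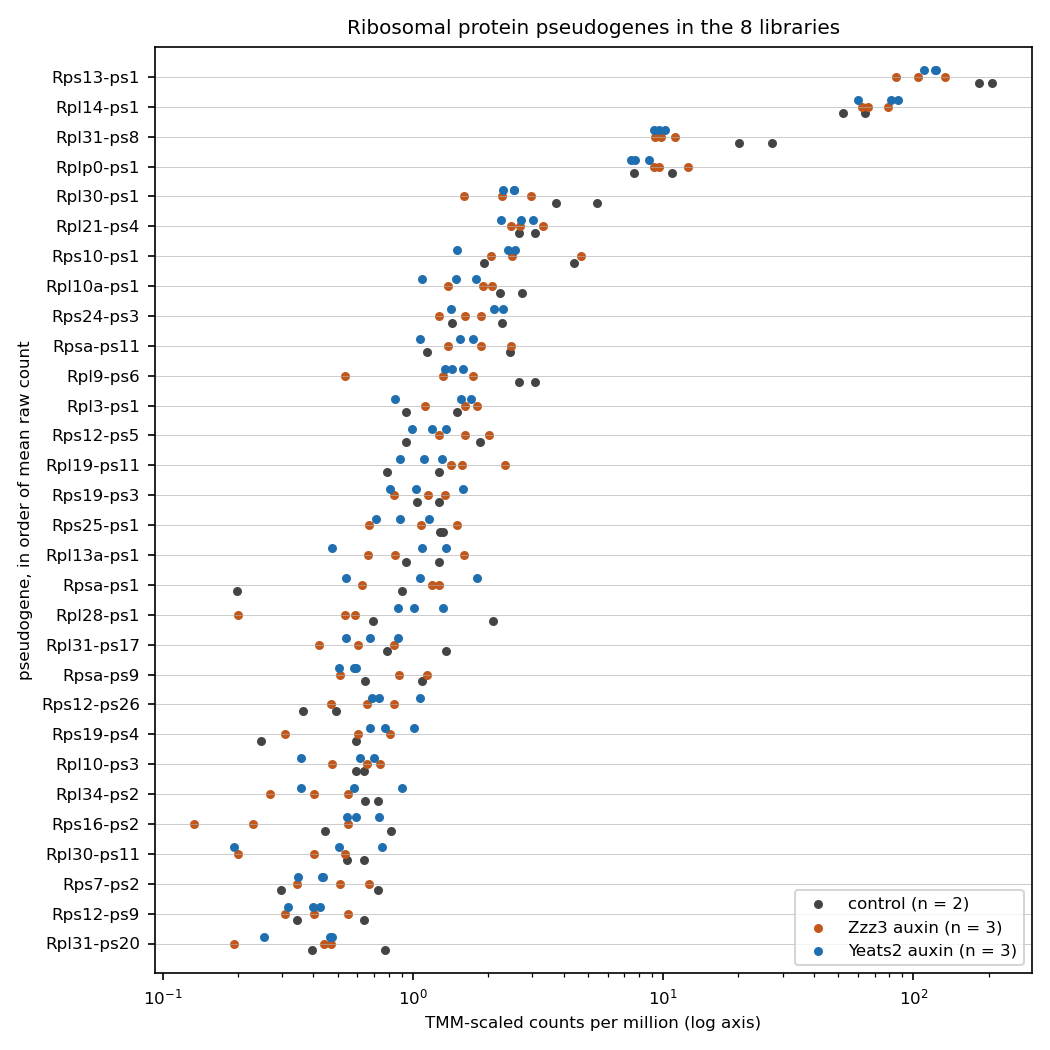
TMM-scaled CPM of 30 of the 32 pseudogenes on a log axis, 1 point per library, in order of mean raw count. Both control libraries lie above all 6 auxin libraries for Rps13-ps1, Rpl31-ps8, Rpl30-ps1, Rpl9-ps6 and Rpl10a-ps1, while Rpl14-ps1 overlaps between groups.

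All 32 passed the filter on low counts and were tested among 17532 genes with edgeR's quasi-likelihood test. Calls rest on adjusted P values under 0.05. In Zzz3 auxin against control, 2 of the 32 (6.25%) were called, both lower, where 0.753% of all genes tested were called in either direction. In Yeats2 auxin against control 1 of the 32 was called, also lower, against 0.445% of all genes. A missed call does not show that a pseudogene did not differ.

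Rps13-ps1 (ENSMUSG00000066362, GRCm38 chromosome 8, 87047689 to 87048226, plus strand) is a copy of Rps13, which encodes a protein of the small subunit. It had 206 and 183 CPM among controls, then 85.1, 134 and 104 for Zzz3 auxin and 110, 122.9 and 122.5 for Yeats2 auxin, so that both controls lay above every auxin library. It fell in Zzz3 auxin by a log2 FC of -0.85, SE 0.16, at an edgeR adjusted P of 0.0454. In Yeats2 auxin the log2 FC was -0.71 (SE 0.16, edgeR adjusted P 0.0958), and Yeats2 auxin against Zzz3 auxin gave 0.14 with an interval of 2 SE from -0.16 to 0.44. The call in Zzz3 auxin was lost without Control replicate 1 (adjusted P 0.497) or 2 (0.0867), Zzz3 auxin replicate 1 (0.0945), or Yeats2 auxin replicate 1 (0.0941), 2 (0.0778) or 3 (0.0953). It was also lost with a mean of at least 1 CPM (adjusted P 0.0539), with the replicate block (0.0719), with the block and GC correction together (0.107) and in the fit of the 2 groups alone (0.191). Over all fits without 1 library, the log2 FC was between -0.69 and -1.03. In Yeats2 auxin, Rps13-ps1 was called by DESeq2 (adjusted P 0.0129), by edgeR without a filter on low counts (0.000392) and by edgeR in the fit of 2 groups (0.00890). Without Zzz3 auxin replicate 1 or 2, Rps13-ps1 was also called in Yeats2 auxin, with edgeR adjusted P values of 0.0478 and 0.0484.

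Rps13 itself (ENSMUSG00000090862, chromosome 7, 116331505 to 116334195, minus strand) had 47.6 and 41.1 CPM among controls, then 23.4, 36.8 and 28.1 for Zzz3 auxin and 36.6, 40.3 and 35.1 for Yeats2 auxin. It was the 1 case in which the copy had more reads than the parent. Of the 100-base stretches of Rps13-ps1, 23.2% were absent from the transcripts of Rps13. A single read from the remaining stretches could not be told from one of the parent by sequence. The log2 FCs of Rps13 were -0.59 in Zzz3 auxin (edgeR adjusted P 0.106) and -0.25 for Yeats2 auxin (edgeR adjusted P 0.544), each with an SE of 0.18. In Zzz3 auxin Rps13 was called by DESeq2 (adjusted P 0.0439), and by edgeR without a filter (0.0141) or without Zzz3 auxin replicate 2 (0.0334). Of the reads of this pair, the copy held 81.3% and 81.6% among controls, then 78.4%, 78.5% and 78.8% for Zzz3 auxin and 75.1%, 75.3% and 77.7% for Yeats2 auxin. The 3 groups did not overlap in this share. Copy minus parent was -0.26 on the log2 scale in Zzz3 auxin and -0.46 in Yeats2 auxin.

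Rpl31-ps8 (ENSMUSG00000067870, chromosome 15, 90764279 to 90764656, minus strand) is the identical copy of Rpl31, a protein of the large subunit. It had 20.03 and 27.1 CPM among controls, then 9.78, 11.2 and 9.24 for Zzz3 auxin and 9.63, 9.19 and 10.2 for Yeats2 auxin, with no overlap between controls and either auxin group. It fell in both, by a log2 FC of -1.22 for Zzz3 auxin (edgeR adjusted P 0.0187) and of -1.29 for Yeats2 auxin (edgeR adjusted P 0.0204), each with an SE of 0.17. The auxin groups differed by a log2 FC of -0.06, with an interval of 2 SE from -0.38 to 0.26. In Zzz3 auxin the call was lost without Control replicate 1 (adjusted P 0.131) or 2 (0.0806), Zzz3 auxin replicate 1 (0.0516), or Yeats2 auxin replicate 1 (0.0597) or 3 (0.0515), and also in the fit of 2 groups (0.154) and with the block and GC correction (0.0600). In Yeats2 auxin it was lost without Control replicate 1 (adjusted P 0.109) or 2 (0.126), or Yeats2 auxin replicate 1 (0.0944), 2 (0.106) or 3 (0.135). The log2 FC itself stayed between -0.99 and -1.49 in these fits.

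Rpl31 (ENSMUSG00000073702, chromosome 1, 39367842 to 39371911, plus strand) had 117 and 112 CPM among controls, then 37.9, 61.8 and 63.0 for Zzz3 auxin and 56.9, 64.6 and 52.4 for Yeats2 auxin. Its log2 FCs of -1.08 (SE 0.19, edgeR adjusted P 0.0375) and -0.98 (SE 0.19, edgeR adjusted P 0.0559) were near those of the copy, and by edgeR it was called in Zzz3 auxin and not in Yeats2 auxin. That call was lost without either control, without Zzz3 auxin replicate 1 and without any 1 of the Yeats2 auxin libraries, with adjusted P values from 0.0516 to 0.381. It was lost as well with the block (0.0508), with the block and GC correction (0.0618) and in the fit of 2 groups (0.178). In Yeats2 auxin, Rpl31 was called by edgeR without Zzz3 auxin replicate 1 (adjusted P 0.0178) or 3 (0.0247), with the GC and length correction alone (0.0457), in the fit of 2 groups (0.00375) and without a filter (1.44e-07), and by DESeq2 (0.000777). The copy held 14.6% and 19.4% of the pair's reads among controls, then 12.8% to 20.5% for Zzz3 auxin and 12.5% to 16.2% for Yeats2 auxin, which overlapped. A read inside the identical 378 bases cannot be told from one of the parent by its own sequence. The deposited totals do not show where within a gene its reads lay, or where the other read of a pair was placed. The reads counted at Rpl31-ps8 were therefore not separated from Rpl31 with certainty. The 2 copies that do differ from Rpl31 were rare: Rpl31-ps17 had 0.789 and 1.36 CPM in the controls and 0.422 to 0.868 in the auxin libraries, with log2 FCs of -0.78 and -0.63, and Rpl31-ps20 had log2 FCs of -0.71 and -0.56. Neither was called (edgeR adjusted P of at least 0.304). Without Control replicate 1 and then without Control replicate 2, the Zzz3 auxin log2 FC of Rpl31-ps17 was -1.12 and -0.33 and that of Rpl31-ps20 was -1.10 and -0.14. For Yeats2 auxin, Rpl31-ps17 had -0.96 and -0.18 in these fits.

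Rpl14-ps1 (ENSMUSG00000046721, chromosome 7, 45324965 to 45325617, plus strand) lies within an intron of Trpm4 on the other strand. It had 52.3 and 64.0 CPM among controls, then 65.8, 62.6 and 79.4 for Zzz3 auxin and 86.6, 81.4 and 60.2 for Yeats2 auxin. The groups overlapped, and the log2 FCs of 0.25 (SE 0.17) and 0.39 (SE 0.17) had edgeR adjusted P values of 0.429 and 0.334. Without Control replicate 1 they were 0.11 and 0.25, and without Control replicate 2 they were 0.41 and 0.54. Rpl14, a large-subunit protein gene, had 338 and 545 CPM among controls, then 455 to 696 for Zzz3 auxin and 441 to 484 for Yeats2 auxin. The controls differed from each other by more than the auxin groups differed from them.

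Rplp0-ps1, a copy of the gene for the base of the ribosomal stalk, had 7.65 and 10.8 CPM among controls, then 9.63, 9.20 and 12.5 for Zzz3 auxin and 7.47, 8.76 and 7.72 for Yeats2 auxin. Of the 6 auxin libraries, 4 lay between the controls. Rplp0 had 275 and 465 CPM in the controls and 326 to 688 in the auxin libraries.

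Lower levels without a call in the main edgeR fit were seen at copies of other large-subunit genes. Other settings, by edgeR or DESeq2, did call 2 of these copies. Rpl30-ps1 had 5.43 and 3.72 CPM among controls, then 2.26, 2.97 and 1.61 for Zzz3 auxin and 2.28, 2.532 and 2.533 for Yeats2 auxin. Its log2 FCs were -0.97 (edgeR adjusted P 0.0921) and -0.90 (edgeR adjusted P 0.173), beside -0.65 and -0.34 for Rpl30. In Zzz3 auxin Rpl30-ps1 was called by DESeq2 (adjusted P 0.0425), and by edgeR without a filter (0.0246) or without Zzz3 auxin replicate 2 (0.0455), while the block and GC correction gave log2 FCs of -0.58 and -0.57. Rpl9-ps6, annotated as protein coding with 1 base different from Rpl9 over 692, had 2.66 and 3.08 CPM among controls, then 0.537, 1.32 and 1.74 for Zzz3 auxin and 1.43, 1.59 and 1.35 for Yeats2 auxin. Its log2 FCs were -1.31 (edgeR adjusted P 0.0945) and -0.98 (edgeR adjusted P 0.246), beside -0.97 and -0.89 for Rpl9. In Zzz3 auxin Rpl9-ps6 was called by DESeq2 (adjusted P 0.0414) and by edgeR without a filter (0.00656). For both copies the controls lay above all auxin libraries. Rpl10a-ps1, identical to Rpl10a over its 654 bases, had 2.22 and 2.72 CPM among controls, then 1.38 to 2.07 for Zzz3 auxin and 1.08 to 1.78 for Yeats2 auxin, with log2 FCs of -0.48 and -0.77, beside -0.40 and -0.61 for Rpl10a. Without Zzz3 auxin replicate 1 the former was -0.31 for the copy.

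Rpl28-ps1 and Rps16-ps2 are 2 more copies with no difference from the parent, a large-subunit and a small-subunit gene. Rpl28-ps1 had 0.691 and 2.09 CPM among controls, then 0.537, 0.586 and 0.201 for Zzz3 auxin and 1.32, 1.01 and 0.871 for Yeats2 auxin. Its log2 FC of -1.57 in Zzz3 auxin was the lowest of the 32 (SE 0.51, edgeR adjusted P 0.120), beside -0.35 for Rpl28, and that in Yeats2 auxin was -0.39, beside -0.36. Leaving out Control replicate 1 gave -2.15 for Zzz3 auxin, leaving out Control replicate 2 gave -0.56, and a fit without a filter called it (edgeR adjusted P 0.0140). In Yeats2 auxin it was -0.97 and 0.63 without the same libraries. Yeats2 auxin was higher than Zzz3 auxin in all libraries, but the log2 FC of 1.18 (SE 0.47) had an unadjusted P of 0.0280 and an edgeR adjusted P of 0.779. Rps16-ps2 had 0.134 to 0.550 CPM in Zzz3 auxin against 0.444 and 0.816 in the controls, a log2 FC of -0.95 (edgeR adjusted P 0.342), beside -0.98 for Rps16. Leaving out Zzz3 auxin replicate 2 gave -1.69 here, and leaving out Control replicate 2 gave -0.44. As with Rpl31-ps8, neither they nor Rpl10a-ps1 hold a stretch of 100 bases that is absent from the parent's transcripts. Whether bases beyond the annotated copy, or the other read of a pair, placed their reads was not tested.

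Higher levels in auxin libraries, again without a call, were found at 4 weakly expressed copies. Rpl19-ps11, copied from a large-subunit gene, had 0.789 and 1.27 CPM among controls, then 1.42, 1.58 and 2.34 for Zzz3 auxin and 0.890, 1.30 and 1.11 for Yeats2 auxin. Zzz3 auxin minus control gave a log2 FC of 0.75 with an SE of 0.35 (edgeR adjusted P 0.242; 0.45 without Control replicate 1 and 1.14 without Control replicate 2), while Rpl19 had -0.39, and the share of the pair's reads at the copy was 3.89% and 4.31% in the controls against 8.24% to 9.86% in Zzz3 auxin. Against Zzz3 auxin, Yeats2 auxin had a log2 FC of -0.66 (unadjusted P 0.0497, edgeR adjusted P 0.779). Rps12-ps26, in the intron of Nol11 and 93.4% identical to the small-subunit gene Rps12, had 0.493 and 0.363 CPM among controls, then 0.468 to 0.843 for Zzz3 auxin and 0.687 to 1.07 for Yeats2 auxin. Its log2 FCs were 0.65 and 0.95 (edgeR adjusted P 0.419 and 0.340), while those of Rps12 were -0.52 and -0.37 and those of Nol11 -0.10 and -0.02. Rpsa-ps1, copied from a small-subunit gene, had log2 FCs of 0.84 and 1.02, and Rps19-ps4, copied from another, had 0.95 in Yeats2 auxin, with edgeR adjusted P values of at least 0.414. For Rpsa-ps1 the controls had 0.197 and 0.907 CPM, a wider gap than that between groups, and its log2 FCs were 0.15 and 0.33 without Control replicate 1 but 2.32 and 2.51 without Control replicate 2. That of Rps19-ps4 was 0.48 and 1.72 without these libraries.

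The remaining copies among the 10 most abundant showed no separation of the groups from the controls in CPM. Rpl21-ps4 ranged from 2.24 to 3.30 CPM over all 8 libraries, Rps10-ps1 from 1.504 to 4.68, Rps24-ps3 from 1.27 to 2.28, and for each the auxin libraries overlapped the controls. The share of the pair's reads at Rpl21-ps4 was 4.37% and 5.89% in the controls and 6.72% to 7.84% in Zzz3 auxin, which did not overlap. In Yeats2 auxin it was 4.31% to 6.62%. Rpl21, a large-subunit gene, had 58.3 and 49.3 CPM in the controls, 31.6 to 44.9 in Zzz3 auxin and 42.4 to 49.8 in Yeats2 auxin. Rps24, the small-subunit gene behind Rps24-ps3, fell in both comparisons. It had 1207 and 1095 CPM among controls, then 516, 670 and 638 for Zzz3 auxin and 612, 670 and 588 for Yeats2 auxin. Its log2 FCs were -0.92 (SE 0.13, edgeR adjusted P 0.0187) and -0.88 (SE 0.13, edgeR adjusted P 0.0241). The first call was lost in the fit of 2 groups (adjusted P 0.154), without Control replicate 1 (0.293) or 2 (0.0781), Zzz3 auxin replicate 1 (0.0516), or Yeats2 auxin replicate 1 (0.0597) or 3 (0.0515), and the second without Control replicate 1 (0.391) or 2 (0.109), or Yeats2 auxin replicate 1 (0.112), 2 (0.106) or 3 (0.159). With Rps24-ps3 at 1.43 and 2.27 CPM among controls, then 1.27 to 1.87 for Zzz3 auxin and 1.42 to 2.28 for Yeats2 auxin, its share of the pair's reads was 0.118% and 0.207% in the controls and 0.240% to 0.372% in the auxin libraries.

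Rpl3-ps1, copied from a large-subunit gene, had 0.937 and 1.497 CPM among controls, then 1.11, 1.61 and 1.81 for Zzz3 auxin and 0.851, 1.56 and 1.70 for Yeats2 auxin. Rpl34-ps2, copied from another, had 0.641 and 0.726 CPM among controls, then 0.269 to 0.550 for Zzz3 auxin and 0.356 to 0.905 for Yeats2 auxin. Of these, the Zzz3 auxin libraries of Rpl34-ps2 lay below both controls. Rpsa-ps9, copied from a small-subunit gene, had 0.641 and 1.09 CPM among controls, then 0.513 to 1.14 for Zzz3 auxin and 0.580, 0.507 and 0.594 for Yeats2 auxin, so that all Yeats2 auxin libraries lay below both controls. Rps12-ps5, copied from another, had 0.937 and 1.86 CPM among controls, then 1.27 to 2.01 for Zzz3 auxin and 0.989 to 1.35 for Yeats2 auxin, which overlapped. None of these 4 was called (edgeR adjusted P of at least 0.417).

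As a list, the pseudogenes had medians between those of ribosomal protein genes and of all genes. In Zzz3 auxin 22 of the 32 had a log2 FC below 0, with a median of -0.12 and a range of -1.57 to 0.84. In Yeats2 auxin it was 25 of 32, with a median of -0.27 and a range of -1.29 to 1.02. Over all genes tested the medians were 0.01 and -0.01, over the 23 parents -0.40 and -0.34, over all 80 cytosolic ribosomal protein genes -0.51 and -0.37, and over 634 other processed pseudogenes with the same minimum count 0.06 and 0.06. The libraries of both groups did not overlap, with the auxin group lower, for 8 of the 32 (25.0%) in Zzz3 auxin, where the share over all genes was 18.9%, and for 8 in Yeats2 auxin, where it was 21.0%. With the auxin group higher this held for 1 and 2 of the 32, against 16.8% and 19.3% of all genes. Without Control replicate 1 the median of the 32 was -0.40 (Zzz3 auxin) and -0.48 (Yeats2 auxin), and without Control replicate 2 it was 0.09 and 0.10, so its sign depended on which control was used. The median GC content was 50.3% for the 32, 50.5% for the parents and 49.0% for all genes, and with a correction for GC content and length the medians of the 32 were -0.094 and -0.24.

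Among the parents, 18 of 23 in Zzz3 auxin and 20 of 23 in Yeats2 auxin had a log2 FC below 0. Called by edgeR were Rpl31 and Rps24 in Zzz3 auxin (8.70% of the 23, beside 0.753% of all genes) and Rps24 in Yeats2 auxin (4.35%, beside 0.445%), all lower. Called in Zzz3 and Yeats2 auxin were 11 and 3 parents with DESeq2, 10 and 4 without a filter, 0 and 4 with the fit of 2 groups, and 0 to 10 and 0 to 3 without single libraries. Over all genes, DESeq2 called 1080 and 398 of the 55401 in the deposited tables, and edgeR without a filter 1542 and 553 of the 33007 with any read. Genes without a read got no P value from DESeq2, so 55401 is not the number it tested. The fit of 2 groups called 0 of 16627 and 454 of 16861. Pseudogene and parent changes were set side by side pair by pair. The copy minus the parent had a median of 0.11 in Zzz3 auxin, where the copy was above the parent in 21 of 32 pairs, and of 0.05 in Yeats2 auxin, where it was above in 17 of 32. In 44 pairs of other -ps pseudogenes and their protein-coding parents, the medians were 0.31 and 0.18, with the copy above in 31 of 44 both times. The ratio of copy to parent did not overlap between auxin and control libraries in 7 of 32 pairs (21.9%) in Zzz3 auxin, beside 29.5% of the other pairs, and in 9 of 32 (28.1%) in Yeats2 auxin, beside 25.0%. Without Control replicate 1 the medians of copy minus parent were -0.0404 and -0.16, and without Control replicate 2 they were 0.38 and 0.32.

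**Figure D3:**
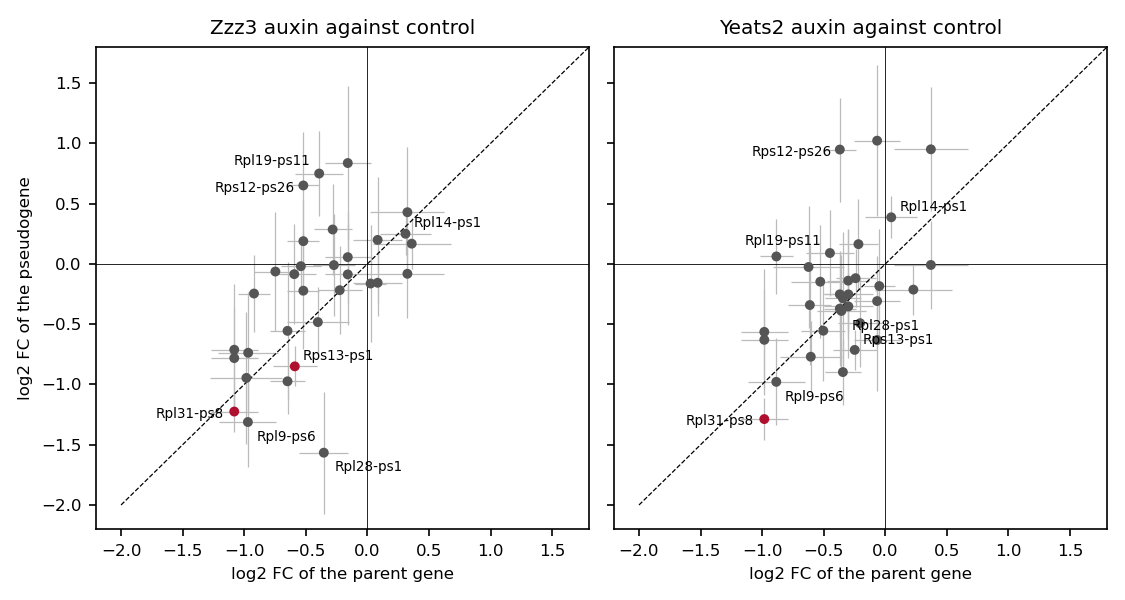
Log2 FC of each of the 32 pseudogenes (vertical) against that of its parent gene (horizontal), with bars of 1 SE, in both comparisons with control. Red points were called by edgeR, the dashed line marks equal change, and of the pairs whose parent is below 0, the copy is also below 0 in 19 of 25 (Zzz3 auxin) and 23 of 28 (Yeats2 auxin).

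Across the 32 pairs, the log2 FC of copy and parent correlated with a Pearson r of 0.58 in Zzz3 auxin and 0.50 in Yeats2 auxin (Spearman rho 0.63 and 0.42), and over the 18 copies of at least 1 CPM with 0.60 and 0.55. Copies and parents share libraries and partly reads, and several copies share a parent, so this is a description. The 5 copies without any difference from the parent over the aligned bases had medians of -0.95 and -0.39, beside -0.40 and -0.61 for their parents. The 12 with other identities of at least 98% had medians of -0.22 and -0.52, beside -0.55 and -0.36, and the 14 with identities below 98% had 0.02 and -0.20, beside -0.16 and -0.27. Identity to the parent and the size of the difference in log2 FC from it had a Pearson r of 0.01 in Zzz3 auxin and -0.09 in Yeats2 auxin over 31 pairs.

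The total of reads counted at the 32, as a share of the reads counted at them and their 23 parents together, was 8.18% and 7.25% among controls, then 6.78%, 7.08% and 5.60% for Zzz3 auxin and 7.22%, 6.70% and 7.06% for Yeats2 auxin. Means were 7.72% ± 0.664 (SD, n = 2), 6.49% ± 0.781 (n = 3) and 6.99% ± 0.268 (n = 3). Both controls lay above every auxin library. A two-sided exact permutation test over libraries cannot decide whether the groups differed in this share. The smallest P it can give is 0.2 for either comparison with control and 0.1 for Yeats2 auxin against Zzz3 auxin. Each lies above the threshold used for calls, so no conclusion is drawn from that test. Without Rps13-ps1 and Rps13 the means were 3.23%, 3.58% and 3.74%, with the controls lowest instead of highest, and the order of the groups depended on that pair.

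**Figure D4:**
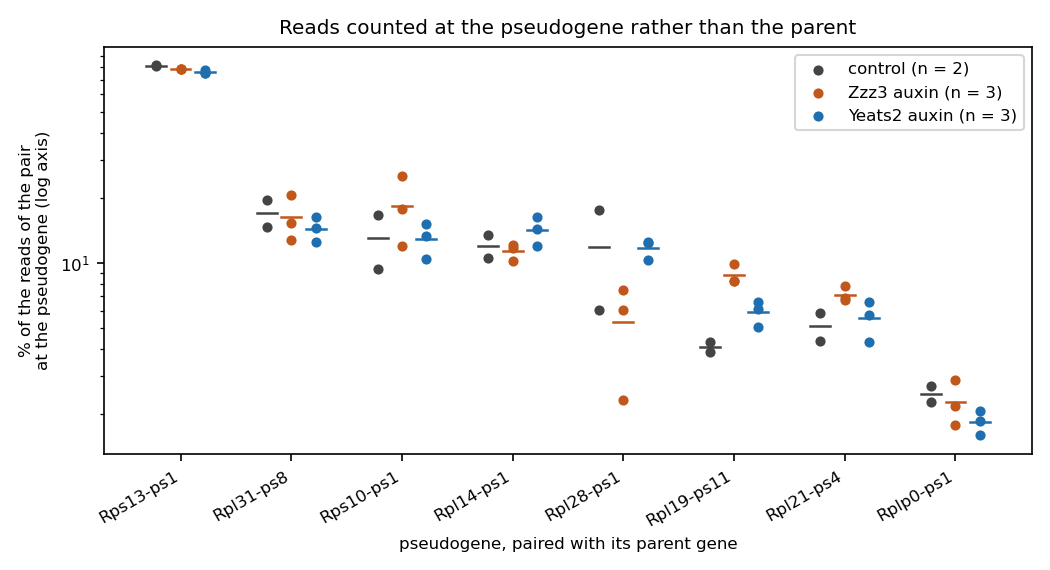
Percentage of the reads of a pair that is counted at the pseudogene (log axis), for 8 pairs, with 1 point per library and a line at the mean of each group. Rps13-ps1 holds 75.1% to 81.6% of its pair, with no overlap between groups, while the other 7 copies hold less than the parent, at 1.60% to 25.2%.

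Yeats2 auxin and Zzz3 auxin were also compared directly. None of the 32 was called by edgeR, as was none of all 17532 genes (0.0%), with 2 of the 32 and 1095 of all genes at an unadjusted P under 0.05. DESeq2 called none of the 32 and 3 of all genes. The median log2 FC of the 32, Yeats2 auxin minus Zzz3 auxin, was -0.04, with 15 above and 17 below 0, and without Zzz3 auxin replicate 2 it was 0.023. Libraries did not overlap for 1 copy higher in Yeats2 auxin, Rpl28-ps1, where 5.25% of all genes did so, and for 2 lower, Rplp0-ps1 and Rpl19-ps11, where 5.82% did. The ratio of copy to parent did not overlap in 7 of 32 pairs (21.9%), beside 11.4% of the 44 other pairs.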

How the data were processed

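Total RNA of mouse ESCs was measured in 2 control, 3 Zzz3 auxin and 3 Yeats2 auxin libraries, grouped by their labels. The deposited values are raw counts per Ensembl gene, 1 table per library. The authors had trimmed 100-base reads, which were sequenced in pairs, and discarded those from ribosomal RNA. They placed the others on mm10 using STAR 2.5.3a and counted uniquely placed reads with HTSeq 0.6.1p1 in union mode, without normalization. This counting leaves out reads that fit copy and parent equally well, so an unknown part of the reads of both is missing. Whether reads of one were counted at the other was not tested, so a level can be too low or too high.

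GENCODE annotation of GRCm38 named 55141 of the 55401 genes and 260 had no match. The members and gene lists were chosen with earlier results of these data known. Counts were fitted in R 4.3.3 with edgeR 4.0.16 (filterByExpr, TMM scaling, robust quasi-likelihood fit of all 8 libraries with 1 mean per group), two-sided, with Benjamini-Hochberg adjustment over 17532 genes and a threshold of 0.05. DESeq2 1.42.0 served for alternatives, and both tools were tested on simulated counts with 200 changed genes. False calls there made up 5.52% of all calls with edgeR and 11.0% with DESeq2 for Zzz3 auxin against control. For Yeats2 auxin against control they made up 5.42% and 8.88%, and for Yeats2 auxin against Zzz3 auxin 10.3% and 15.8%. CPM values are TMM-scaled. SEs were derived from the log2 FC and its F statistic (absolute log2 FC over root F). A parent is the gene whose symbol precedes -ps.

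Each pseudogene was aligned locally, with Biopython 1.88, to the protein-coding transcripts of its parent and the best-scoring one was kept. Its stretches of 100 bases, the read length, were looked up in all other annotated transcripts. Untranscribed copies in the genome were not searched. Text named members that were called, the 10 with the highest CPM, the 5 largest rises and falls per comparison (levels only for some of them) and 3 on each side of the minimum count, except for 2 pseudogenes that are counted in all totals but not reported here. Rps7-ps2, Rpl31-ps17 and Rpl31-ps20, and the genes that overlap or resemble a member, were named for sequence or position after values were seen. Alternatives comprised other size factors, filters, a fit of 2 groups, a replicate block, a GC and length correction, and leaving out each library. Tables were made in Python 3.11.15 with pandas 2.3.3 and numpy 2.4.6, and figures with matplotlib 3.10.9.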

Additional observations from a re-analysis of the deposited data

How the results depend on the processing

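Calls were the least stable. Pseudogenes called in Zzz3 auxin numbered 4 with DESeq2, 5 without a filter on low counts, 1 with a mean of at least 1 CPM, 1 with the replicate block and 0 with the fit of 2 groups, with the block and GC correction together, or among the 21 with at least 50% distinct stretches (an alternative chosen after seeing the data), and 0 to 3 without single libraries. Parents called there numbered 11, 10, 2, 1, 0 and 1 in the first 6 of these, and 0 to 10 without single libraries. In Yeats2 auxin 2 pseudogenes were called with DESeq2, without a filter and with the fit of 2 groups, 0 among the 21, and 0 to 2 without single libraries. Parents there numbered 3, 4 and 4, 2 with the GC and length correction, and 0 to 3 without single libraries. Where a control was left out, the lone control was taken to vary like the other groups. Calls over all genes in Zzz3 auxin were 1080 of 55401 with DESeq2, 1542 of 33007 without a filter and 107 of 13911 with a mean of at least 1 CPM. They were 42 of 17532 with the block and 0 of 16627 with the fit of 2 groups. In Yeats2 auxin they were 398 of 55401 with DESeq2, 553 of 33007 without a filter and 454 of 16861 with the fit of 2 groups. The 55401 are all genes in the deposited tables, and those without a read were not tested by DESeq2.

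The median log2 FC of the 32 ranged from -0.40 to 0.089 in Zzz3 auxin and from -0.48 to 0.10 in Yeats2 auxin without single libraries. The median of copy minus parent in Zzz3 auxin was 0.30 with the GC correction and block, -0.071 with a mean of at least 1 CPM, and -0.0404 to 0.38 without single libraries. In Yeats2 auxin it was -0.11 with a mean of at least 1 CPM, and -0.16 to 0.32 without single libraries. Without Rps7-ps2 it was 0.10 and 0.05, also chosen after seeing the data. Medians of the parents stayed below 0 in all alternatives against control, including parents summed with their copies. The share of reads at pseudogenes was 2.67%, 2.62% and 2.74% (control, Zzz3 auxin, Yeats2 auxin) over all 300 copies, which bring further parents into the total, and 3.23%, 3.58% and 3.74% without Rps13-ps1 and Rps13, the latter chosen after seeing the data. The cause of these shifts was not tested.

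Among the log2 FCs printed for pseudogenes and parents that were recomputed (not those of Nol11, Zzz3 or Yeats2), 4 changed sign without single libraries. In Yeats2 auxin, Rpl31-ps20 ranged from -0.95 to 0.0053 and Rpl28-ps1 from -0.97 to 0.63, each above 0 without Control replicate 2. In the direct comparison Rps13-ps1 ranged from -0.011 (without Zzz3 auxin replicate 1) to 0.32 and Rpl31-ps8 from -0.12 to 0.017 (without Zzz3 auxin replicate 2). Same-numbered libraries did not deviate together (r of -0.34 to 0.31 over 7 pairs), so the numbers were not read as pairing. The block gave 42 and 32 calls over all genes against control, where there were 132 and 78 without it. DESeq2 gave 1080 and 398, no filter 1542 and 553, the fit of 2 groups 0 and 454, and leaving out single libraries 0 to 841 and 0 to 217. With the replicate block Rpl31-ps8 was called in both comparisons, and Rps13-ps1 had an adjusted P of 0.0719 in Zzz3 auxin (edgeR). With 2 to 110 reads per library for 28 of the 32, counting error limits what these can show.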
